A study of Mus musculus with 6 samples.

Results

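Hox genes encode homeodomain transcription factors that give cells along the head to tail axis their regional identity, and 33 of the 39 mouse Hox genes could be read on the arrays of this study of neonatal mouse back skin. The members were taken by gene symbol. They are the genes of the Hoxa, Hoxb, Hoxc and Hoxd clusters for which the platform annotation gives a probe set with a single symbol, out of 18193 genes named in that way, and a gene with several was read by the one whose mean across both groups was greatest. Hox genes without such a probe set were not analysed here. Of the members, 11 had more than 1 probe set of their own.

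The 6 mice, all females from 1 litter on a mixed FVB/N and C57BL/6 background, gave their back skin whole at postnatal day 2.5, and each had 1 Affymetrix array. The 3 mice labelled K5cre-caNrf2 (tg/tg) carry a Cre recombinase under the keratin 5 promoter together with a constitutively active Nrf2, a transcription factor of antioxidant and detoxification genes. The 3 control mice are labelled K5cre-wt (tg/wt), read here as Cre without the active Nrf2, so Cre is shared by both groups. The keratin 5 promoter is active in basal keratinocytes and hair follicle epithelium, and the dermal cells of the same skin do not use it. The sample descriptions add the word weak to both groups without saying what it refers to. Nqo1, the classical Nrf2 target, stood at 5.92 in control and 9.53 in caNrf2 skin (mean log2 intensity, n = 3 each), a difference of 3.61 ± 0.13 (SE; limma adjusted p = 2.70e-07), and Nfe2l2, the gene of Nrf2 itself, differed by 0.41 ± 0.07 (limma adjusted p = 0.0539).

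Mammals have 4 Hox clusters, and within each the genes carry paralogue numbers in their order along the chromosome. Low numbers, at the 3′ end of a cluster, are used from the hindbrain and neck backwards, middle numbers in the thorax, and high numbers in the lumbar and tail regions, the limbs and the genitalia. Skin cells, dermal fibroblasts above all, keep a Hox pattern of the place where they arose, and Hoxc13 has a further role in the hair matrix, where hair keratin genes depend on it. Polycomb proteins hold Hox genes silent where they are not used, trithorax proteins keep them active, and Pbx and Meis proteins bind DNA together with Hox proteins.

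Levels are log2 values of the deposited RMA intensities, and probe sets bind their transcripts with unequal strength. A gene was therefore read only against fixed marks of the arrays, never against another gene, and bright and dim mean above and below the first mark. The first mark was the median probe set, at 6.35, with single array medians between 6.34 and 6.36. The second was the level of genes that female skin cannot transcribe, taken from the Y-linked genes Eif2s3y, Kdm5d and Uty, whose means lay between 3.02 and 3.74. In whole skin, fewer cells of a type and less RNA in each cell cannot be told apart. The tissue label was checked against defining markers. All 8 dermal fibroblast markers, all 8 keratinocyte markers and all 6 skeletal muscle markers measured lay above the median probe set. Of 6 nerve markers, Snap25, Nefl and Nefm lay within the Y-linked range, Elavl4 was dim at 4.53, and Stmn2 and Tubb3 were above the median probe set at 7.94 and 7.40. Of 4 cartilage markers Matn1 lay within the Y-linked range (3.02), Col9a1 and Col2a1 were at 6.11 and 6.23, and Acan was above the median probe set at 7.09. Genes that pattern limbs and head were mostly dim as well, with 8 of 9 below the median probe set, Otx2 at 3.09 and Otx1 at 3.65. With 3 mice in a group the precision of every value is limited, and p-values measure the spread between single mice of 1 litter.

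Most Hox genes of the neck and thorax were bright in this skin, while those of the lumbar region, the tail and the digits were dim apart from Hoxc13. Of the 33 genes, 17 had a mean above the median probe set, or 51.5%, beside 64.5% of all genes. The 17 comprised 3 of 7 genes with paralogue numbers 1 to 3, 13 of 16 with numbers 4 to 9 and 1 of 10 with numbers 10 to 13. This grouping of paralogue numbers was chosen with the values known. By cluster the counts were 4 of 9 in Hoxa, 5 of 9 in Hoxb, 6 of 7 in Hoxc and 2 of 8 in Hoxd. A higher mark, the median of 7.63 over 1 probe set per gene, was passed by 11 of the 33. The bright genes that did not pass it were Hoxa2, Hoxb4, Hoxb5, Hoxc4, Hoxc5 and Hoxc9. The large share for numbers 4 to 9 thus depended on the mark. Hoxa2 lay on the first mark itself, at 6.35, and was counted as above. The nearest genes below it were Hoxa3 at 6.04 and Hoxc10 at 6.02, and the nearest above was Hoxb5 at 6.57.

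**Figure D1:**
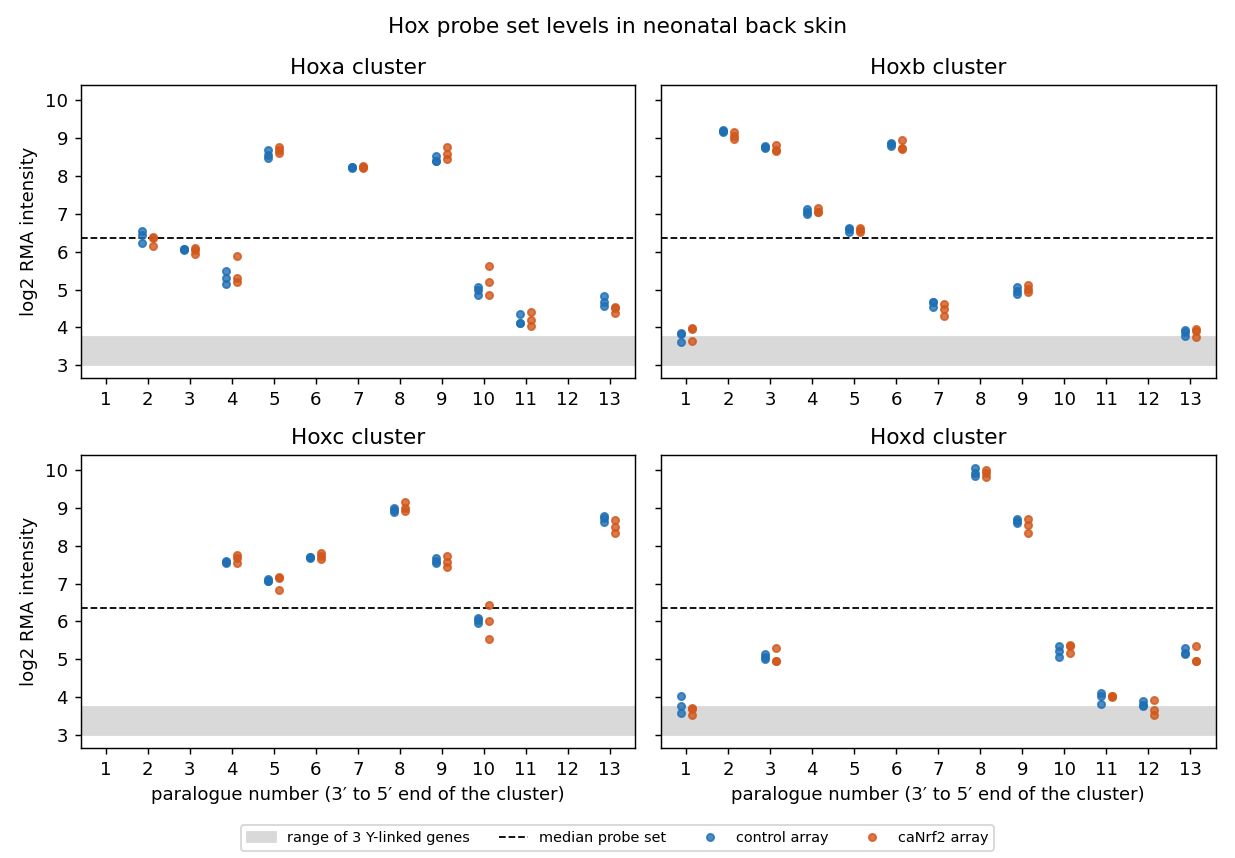
Log2 RMA intensity of each Hox gene (vertical axis) against its paralogue number (horizontal axis) in the 4 clusters, with 1 point per array, blue for the 3 control and orange for the 3 caNrf2 arrays. The dashed line is the median probe set at 6.35 and the grey band spans the means of 3 Y-linked genes, 3.02 to 3.74. Points of both groups lie together for nearly every gene, paralogues 10 to 13 sit low apart from Hoxc13, and the caNrf2 points of Hoxc10, Hoxa10 and Hoxa4 are spread out.

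In the Hoxa cluster the genes changed from bright to dim between Hoxa9 and Hoxa10, which are neighbours on the chromosome. Hoxa9, a gene of the lower thorax and also of blood progenitors, measured 8.38, 8.53 and 8.38 on the control arrays and 8.45, 8.58 and 8.77 on the caNrf2 arrays. Hoxa10, a lumbar gene also needed in the uterus, measured 5.07, 4.99 and 4.85 in control and 4.84, 5.19 and 5.63 in caNrf2 skin. Every array thus placed Hoxa9 above and Hoxa10 below the median probe set. Hoxa11, a gene of the forearm and lower leg, followed at 4.03 to 4.40 and Hoxa13, a gene of digits and genitalia, at 4.37 to 4.84 over the 6 arrays. A second probe set of Hoxa10 had a mean of 3.41, within the Y-linked range, and a second one of Hoxa9 a mean of 6.83, above the median probe set.

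In the Hoxd cluster the change from bright to dim lay between Hoxd9 and Hoxd10. Hoxd8, a gene of the trunk, measured 9.83, 10.04 and 9.93 in control and 9.80, 9.99 and 9.92 in caNrf2 skin. Hoxd9 measured 8.60, 8.71 and 8.65 in control and 8.32, 8.70 and 8.54 in caNrf2 skin. The groups overlapped for both genes. Beyond them, Hoxd10, Hoxd11 and Hoxd12 had means of 5.25, 4.01 and 3.77, and Hoxd13, a gene of digit formation, one of 5.15, with a second probe set at 4.33. Towards the other end of the cluster Hoxd3 had a mean of 5.07, and Hoxd1, known from pain-sensing neurons, had 3.72, the only member mean within the Y-linked range. Among the members of this cluster, Hoxd8 and Hoxd9 alone passed the median probe set. Of the probe sets given jointly to Hoxd4 and Hoxd3, which are not members, the brighter passed it too at 6.63, and the other read 5.77.

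The bases just upstream of the starts of 4 of these genes are shown because they stand for both sides of the change: Hoxa9 and Hoxa10 are the neighbours at the change in the Hoxa cluster, and Hoxd8 is a bright gene and Hoxd13 the dim last gene of the Hoxd cluster. Sequences are from RefSeq, build GRCm38.p6, 250 bases ending at the base before the annotated start, written 5′ to 3′ on the strand of the gene. Capitals mark matches to CCAAT or TATAAA on either strand, which read ATTGG and TTTATA on the opposite one, and the pair of overlapping TATAAA matches in Hoxd13 forms a single run of capitals. The Hoxa9 window and the Hoxa10 window shown hold neither. Hoxa10 has a second annotated start, whose window is not shown and holds 1 TATAAA and 1 CCAAT match, with 59.2% G and C and 20 CpG pairs. The windows lie at chr6:52227371-52227620 on the minus strand for Hoxa9, chr6:52240855-52241104 on the minus strand for Hoxa10, chr2:74704365-74704614 on the plus strand for Hoxd8 and chr2:74667975-74668224 on the plus strand for Hoxd13.
Hoxa9: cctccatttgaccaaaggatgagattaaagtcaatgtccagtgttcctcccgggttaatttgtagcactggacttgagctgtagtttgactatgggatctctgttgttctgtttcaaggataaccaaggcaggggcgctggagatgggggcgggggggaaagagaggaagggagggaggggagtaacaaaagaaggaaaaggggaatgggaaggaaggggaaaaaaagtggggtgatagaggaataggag
Hoxa10: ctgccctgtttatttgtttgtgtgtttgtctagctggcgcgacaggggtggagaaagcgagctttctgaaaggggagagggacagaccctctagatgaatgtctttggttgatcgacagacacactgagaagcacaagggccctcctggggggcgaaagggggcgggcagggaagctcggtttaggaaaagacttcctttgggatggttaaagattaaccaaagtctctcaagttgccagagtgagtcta
Hoxd8: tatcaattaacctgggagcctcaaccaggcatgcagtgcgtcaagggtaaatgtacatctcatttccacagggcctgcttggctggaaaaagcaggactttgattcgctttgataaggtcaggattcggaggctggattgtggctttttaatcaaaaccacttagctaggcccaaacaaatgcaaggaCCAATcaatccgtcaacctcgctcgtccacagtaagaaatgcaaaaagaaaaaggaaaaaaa
Hoxd13: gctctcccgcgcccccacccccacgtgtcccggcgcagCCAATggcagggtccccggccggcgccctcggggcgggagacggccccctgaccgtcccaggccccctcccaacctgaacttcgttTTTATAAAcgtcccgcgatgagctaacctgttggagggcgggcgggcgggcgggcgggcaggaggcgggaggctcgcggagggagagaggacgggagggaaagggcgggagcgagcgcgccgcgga

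G and C made up 49.6% of the Hoxa9 and 51.6% of the shown Hoxa10 window, with 3 and 7 CpG pairs. They made up 44.4% of the Hoxd8 window, with 6 CpG pairs, and 74.4% of the Hoxd13 window, with 31. RefSeq windows were at hand for 19 of the 33 genes, 21 windows in all since Hoxa10 and Hoxd11 have a pair each. Median GC was 56.4% over the 8 windows of genes above the median probe set, 59.2% over the 13 windows of dimmer genes and 52.4% over all 32851 windows, with medians of 7.5, 18 and 6 CpG pairs. The core of the element that Nrf2 binds, TGACNNNGC read on both strands, occurred in 0 of the 21 Hox windows and in 10.2% of all windows. TGATTNAT, a site for Hox and Pbx proteins together, occurred in 2 of 21, those of Hoxa2 and of 1 Hoxd11 start, and in 2.83% of all windows. TATAAA occurred in 2 of 21 against 12.4%, and CCAAT in 11 of 21 against 33.9%. These are matches of letters in a short window and say nothing about binding.

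Hoxc was the cluster with the largest share of bright genes, and it held the single bright gene of the tail end. Hoxc13, needed for the hair shaft and nails, measured 8.62, 8.79 and 8.74 on the control arrays and 8.67, 8.48 and 8.33 on the caNrf2 arrays. Hoxc8, a thoracic gene, measured 8.94, 8.90 and 9.0 in control and 8.98, 8.91 and 9.16 in caNrf2 skin. Hoxc9, a gene of the lower thorax, measured 7.59, 7.54 and 7.66 in control and 7.43, 7.58 and 7.71 in caNrf2 skin. Each of the 3 lay above the median probe set on every array. Hoxc6, which marks the start of the thorax, measured 7.70, 7.66 and 7.71 in control and 7.65, 7.80 and 7.72 in caNrf2 skin. Hoxc5, a gene of the neck and shoulder level, measured 7.06, 7.07 and 7.11 in control and 6.83, 7.18 and 7.14 in caNrf2 skin. Hoxc4, the gene at the 3′ end of this cluster, measured 7.56, 7.55 and 7.59 in control and 7.68, 7.74 and 7.55 in caNrf2 skin. Groups overlapped for all of these 6 genes. The sides of the median probe set depended on the probe set for Hoxc5, whose other sets had means of 5.85 and 5.75, and for Hoxc6, whose others had 7.66 and 6.32. Hoxc10, between Hoxc9 and Hoxc13, measured 6.10, 6.05 and 5.97 in control and 5.53, 6.02 and 6.44 in caNrf2 skin, and crossed the median of its array only on the third caNrf2 array.

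In the Hoxb cluster the bright genes were Hoxb2 to Hoxb6, which are used from the hindbrain, the neck or the upper thorax backwards. Hoxb2, used from the hindbrain backwards, measured 9.17, 9.14 and 9.19 in control and 8.98, 9.15 and 9.06 in caNrf2 skin. Hoxb6, known from the flank and the forelimb bud, measured 8.85, 8.85 and 8.79 in control and 8.72, 8.94 and 8.73 in caNrf2 skin. Hoxb3, a neck gene, measured 8.74, 8.75 and 8.79 in control and 8.81, 8.68 and 8.66 in caNrf2 skin. The groups overlapped for these 3 genes. Hoxb4, also known from blood stem cells, measured 7.11, 6.99 and 7.05 in control and 7.04, 7.16 and 7.06 in caNrf2 skin, with a second probe set just below the median probe set at 6.29. Hoxb5, known from the gut nervous system, measured 6.63, 6.53 and 6.6 in control and 6.62, 6.56 and 6.50 in caNrf2 skin. Both passed the median on every array. Hoxb7 and Hoxb9 were dim, with means of 4.55 and 5.0, although they lie within the trunk range of paralogue numbers. Hoxb1, a gene of the hindbrain, and Hoxb13, a gene of the tail and prostate, had means of 3.82 and 3.86, just over the Y-linked range. That range is of means, and Kdm5d read 3.95 on control array 2. Hoxb1, Hoxb13 and also Hoxd12 at 3.77 can therefore not be told apart from absent transcripts. A probe set that the annotation gives to Hoxb8 and Hoxb7 jointly read 5.17, and the brighter of the pair given jointly to Hoxd4 and Hoxd3 read 6.63.

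The remaining bright genes belong to the Hoxa cluster. Hoxa5, known from lung and shoulder girdle development, measured 8.54, 8.69 and 8.46 in control and 8.59, 8.77 and 8.68 in caNrf2 skin. Hoxa7 measured 8.24, 8.21 and 8.23 in control and 8.24, 8.2 and 8.25 in caNrf2 skin. Its 6 values spanned only 0.05, the narrowest of all members. Hoxa2, which sets the identity of the second pharyngeal arch, measured 6.56, 6.43 and 6.22 in control and 6.15, 6.35 and 6.38 in caNrf2 skin, on either side of the median probe set in both groups. Hoxa3, needed for the thymus and parathyroid, had a mean of 6.04 and 3 further probe sets between 3.87 and 5.91. Hoxa4 had a mean of 5.39 and a second probe set at 3.38.

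No Hox gene passed the test between caNrf2 and control skin. In the limma fit over all 18193 genes, 0 of 33 were called at an adjusted p under 0.05, where 0.374% of all genes were called, 0.346% higher and 0.0275% lower. At an unadjusted p under 0.05 there were 2 of 33, Hoxa13 and Hoxc13, both lower, beside 8.09% of all genes, 3.26% higher and 4.82% lower. The groups did not overlap for 1 gene (13.1% of all genes), Hoxa13, which was lower in caNrf2 skin, a pattern seen in 6.88% of all genes, and for no gene that was higher (6.23% of all genes). Of the members 16 had a difference above 0, beside 47.2% of all genes, and 17 one below 0, with a median log2 difference of -0.02, beside -0.01 over all genes. The smallest adjusted p among members was 0.533. The differences lay between -0.23 and 0.25. For 32 of the 33 genes the 95% interval lay within a 1.5-fold change in either direction, as it did for 17897 of all genes, and the exception was Hoxa10. These limits hold for whole skin and for the 3 mice of each group.

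**Figure D2:**
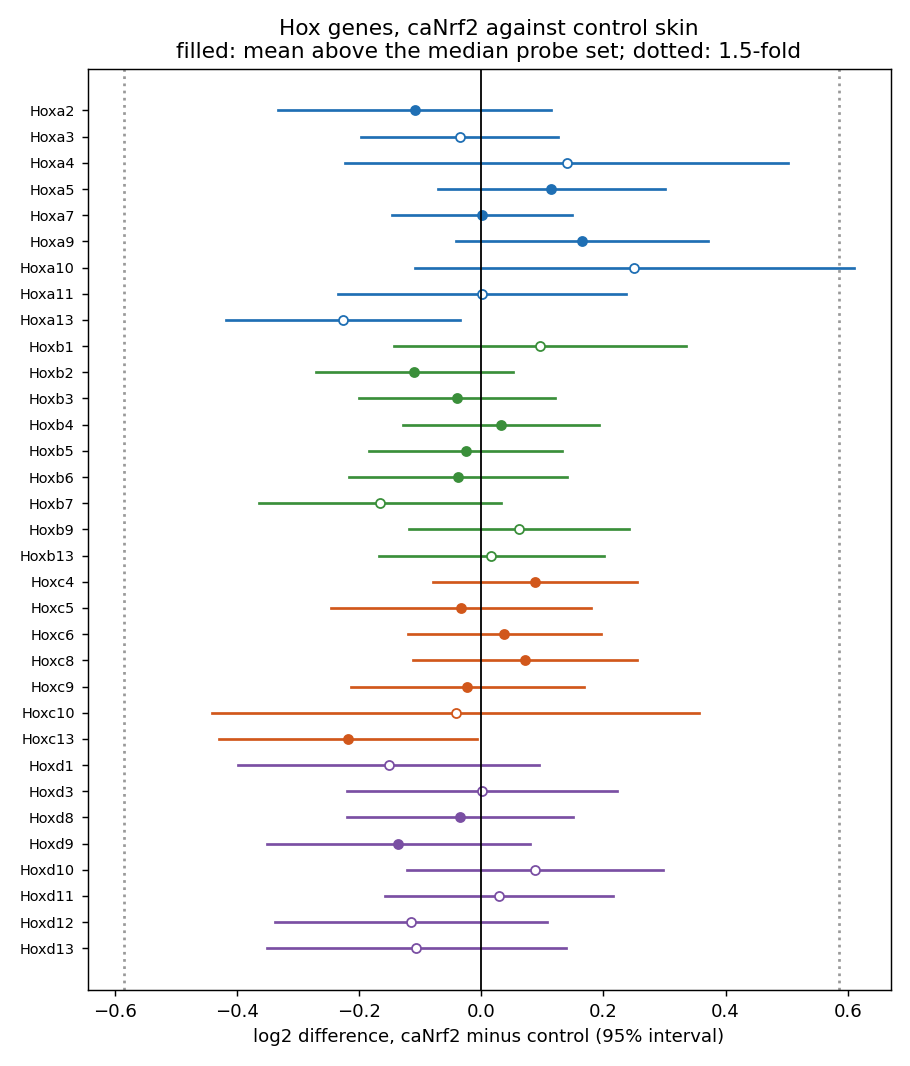
Log2 difference between caNrf2 and control skin (horizontal axis) for each of the 33 Hox genes (vertical axis, ordered by cluster and paralogue number), with 95% intervals from limma as bars. Filled points are genes with a mean above the median probe set, and dotted lines mark a 1.5-fold change. Bars cross 0 for 31 genes, those of Hoxa13 and Hoxc13 end below 0 before any adjustment, and only the bar of Hoxa10 passes a dotted line.

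Hoxa13 gave the smallest p of the members. It measured 4.67, 4.84 and 4.58 in control and 4.37, 4.50 and 4.53 in caNrf2 skin. The difference was -0.23 ± 0.09 (SE, 95% interval -0.42 to -0.04, limma adjusted p = 0.533). Hoxc13 had means of 8.71 ± 0.09 in control and 8.49 ± 0.17 in caNrf2 skin (SD, n = 3 each). It differed by -0.22 ± 0.10 (95% interval -0.43 to -0.01, limma adjusted p = 0.609), and the first caNrf2 array lay inside the control values. Hoxb7 measured 4.54, 4.67 and 4.67 in control and 4.61, 4.31 and 4.47 in caNrf2 skin, with a difference of -0.17 ± 0.09 (limma adjusted p = 0.689). Its first caNrf2 array too lay among the controls. Hoxa9 differed by 0.16 ± 0.09 (95% interval -0.04 to 0.37, limma adjusted p = 0.705) and Hoxa10 by 0.25 ± 0.16 (95% interval -0.11 to 0.61, limma adjusted p = 0.744). Both were highest on the third caNrf2 array. Hoxb2 completed the 6 smallest p with -0.11 ± 0.07 (limma adjusted p = 0.752), from 9.17 ± 0.03 in control to 9.06 ± 0.08 in caNrf2 skin. Single caNrf2 arrays moved several of these values, in either direction. Without the first, Hoxb2 differed by -0.07, but Hoxb7 by -0.24, Hoxc13 by -0.31 and Hoxa9 by 0.24. Without the second, Hoxb7 differed by -0.09 and Hoxb2 by -0.15. Without the third, Hoxc13 differed by -0.14 and Hoxa9 by 0.08. None of these 6 genes was called with any array left out.

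Several Hox genes differed more among the 3 caNrf2 mice than between the groups. Over all genes the median SD was 0.07 in control and 0.11 in caNrf2 skin, and over the Hox genes 0.07 and 0.13. Among genes above the median probe set it was 0.06 and 0.10 over all genes, and 0.05 and 0.10 over the Hox genes. The caNrf2 SD was the larger one for 26 of 33 Hox genes, or 78.8%, and for 68.2% of all genes. Hoxc10 had an SD of 0.07 among control and 0.46 among caNrf2 arrays, the latter at the 99.6th percentile of all genes. For Hoxa10 the SD was 0.11 and 0.40, with the caNrf2 value at the 99.2th percentile. For Hoxa4 it was 0.18 and 0.37, at the 99.0th percentile in caNrf2 skin. These 3 genes were named after their values were seen, and the mean of each lay below the median probe set.

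The arrays that stood apart were not the same for these genes. Relative to the control mean, Hoxc10 stood at -0.51, -0.02 and 0.40 on caNrf2 arrays 1, 2 and 3, and Hoxa10 at -0.13, 0.22 and 0.66. Hoxa4 was high on array 2 alone, at 0.57, with -0.12 on array 1 and -0.03 on array 3, while its control arrays stood between -0.18 and 0.18. From the lower thorax to the tail, Hoxa9, Hoxa10, Hoxa13, Hoxc9, Hoxc10 and Hoxd10 shared the order with array 1 lowest and array 3 highest. That makes 6 of 14 genes with paralogue numbers 9 to 13, against 2 of 19 with lower numbers and 16.1% of all genes. Over all 33 Hox genes the share was 24.2%. The reverse order, array 3 lowest and array 1 highest, held for 2 of the 14 and 4 of the 19. The order was noticed in the values, and the cut at number 9 differs from the paralogue groups above. These counts are therefore a description and show no link to position. Hoxc10 differed by -0.04 ± 0.18 over all arrays, by 0.19 without the first caNrf2 array and by -0.26 without the third, and it was called in none of these fits (limma adjusted p from 0.494 to 0.980). Hoxa10 differed by 0.44 without the first and by 0.05 without the third (limma adjusted p = 0.180 and 0.990).

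Markers of other structures moved across the same arrays. The median deviation of 6 hair follicle markers from the control mean was 0.26, 0.07 and -0.56 on caNrf2 arrays 1, 2 and 3, and between -0.04 and 0.02 on the control arrays. Hoxc13 stood at -0.04, -0.23 and -0.38 in the same order, so both were lowest on array 3. The mean level of the 6 hair follicle markers ranged from 10.51 to 10.57 in control and from 10 to 10.8 in caNrf2 skin. The 6 skeletal muscle markers had median deviations of -0.11, 0.04 and 0.12, and mean levels of 12.47 to 12.54 in control and 12.40 to 12.65 in caNrf2 skin. The 8 dermal fibroblast markers ranged from 12.52 to 12.62 in control and from 12.49 to 12.59 in caNrf2 skin. The mean level of the 8 keratinocyte markers did not overlap, at 13.16 to 13.18 in control and 13.20 to 13.21 in caNrf2 skin. All 8 were higher (47.2% of all genes), with a median difference of 0.04, and 0 were called (0.374% of all genes). The 4 melanocyte markers, whose cells pigment the follicle, had median deviations of 0.06, -0.03 and -0.32 on the same caNrf2 arrays. The part of keratinocytes, hair follicle, pigment cells and muscle in the Hox values was not tested.

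**Figure D3:**
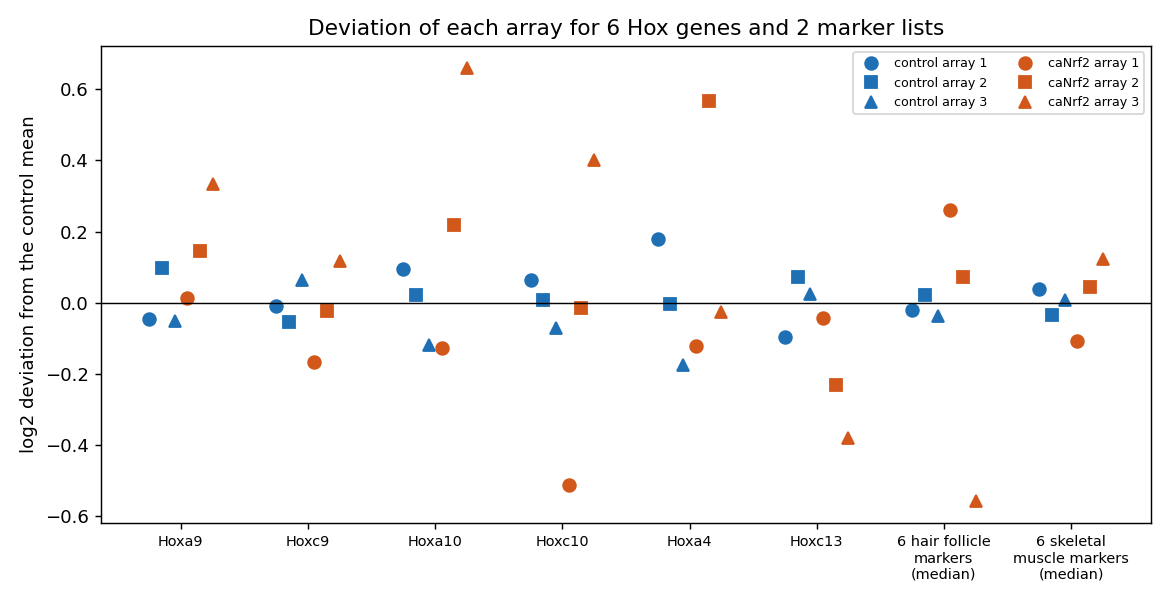
Log2 deviation from the control mean (vertical axis) of each of the 6 arrays for 6 Hox genes and for the medians of 6 hair follicle and 6 skeletal muscle markers (horizontal axis), blue for control and orange for caNrf2 arrays. The third caNrf2 array is the highest for Hoxa9, Hoxc9, Hoxa10 and Hoxc10 and the lowest for Hoxc13 and the hair follicle markers, at -0.38 and -0.56.

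The genes around and above the Hox genes were examined as lists. Of 8 measured genes for Hox partners of the Pbx, Meis and Pknox families, 6 lay above the median probe set, 0 were called and the median difference was 0.00. Pknox2 differed by -0.21 ± 0.09 (limma adjusted p = 0.613), Pbx4 by 0.27 ± 0.12 (limma adjusted p = 0.613) and Meis2 by 0.13 ± 0.08 (limma adjusted p = 0.710). All 16 measured Polycomb genes and all 12 trithorax genes lay above the median probe set, with 0 called in either list and medians of -0.01 and -0.01. Among them Pcgf2, a Polycomb subunit, differed by -0.17 ± 0.09, Phc1 by -0.14 ± 0.10 and Cbx7, which reads the Polycomb mark, by 0.11 ± 0.08. The trithorax methyltransferases Kmt2b and Kmt2a differed by -0.13 ± 0.07 and -0.06 ± 0.07, and Wdr5, their shared subunit, by -0.07 ± 0.08. Of 11 genes that act upstream of Hox genes, which include the Cdx factors and retinoic acid receptors, 5 lay above the median probe set, 0 were called and the median was 0.00. Cdx2 differed by -0.18 ± 0.11, Cyp26a1, which breaks down retinoic acid, by -0.06 ± 0.08 and the retinoid receptor gene Rxra by 0.06 ± 0.09. The 0 called in each of these lists stands beside 0.374% called over all genes. At an unadjusted p under 0.05 in limma there were 2 partner genes and none of the Polycomb, trithorax and upstream genes, beside 8.09% of all genes.

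Transcripts within and beside the clusters stayed uncalled too. Of 10 measured neighbours and noncoding transcripts 0 were called (0.374% of all genes) and 3 had an unadjusted p under 0.05 in limma (8.09% of all genes), with a median of -0.01. Hoxb5os, an antisense transcript beside Hoxb5 and Hoxb6, measured 8.90, 9.09 and 9.16 in control and 9.07, 9.10 and 8.88 in caNrf2 skin. Hoxd3os1, antisense to the Hoxd3 region, had a mean of 8.10 on 1 probe set and 4.62 on another. Hoxa11os, the antisense partner of Hoxa11, read 3.24, within the Y-linked range, and differed by -0.16 ± 0.07 (limma adjusted p = 0.609). Evx1, the homeobox gene beyond Hoxa13, differed by -0.26 ± 0.09 (limma adjusted p = 0.448) at a mean of 4.66 in caNrf2 and 4.91 in control skin. Lnpk, the gene beyond the Hoxd cluster and Evx2, differed by 0.25 ± 0.11 (limma adjusted p = 0.609).

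Genes that mark trunk dermis in other ways were uncalled as well. Of 12 measured, 0 were called (0.374% of all genes) and the median was -0.01. Above the median probe set lay 9 of the 12, beside 64.5% of all genes. They included Tbx15 at 9.14, Twist1 at 9.15, Prrx1 at 9.95, Zic1 at 8.81 and Dlk1 at 12.24, while En1, known from ventral limb skin and dorsal dermis, read 5.02. Alx4 differed by -0.23 ± 0.08 (limma adjusted p = 0.489), Zic1 by 0.16 ± 0.08 (limma adjusted p = 0.683) and Msx1 by -0.12 ± 0.09 (limma adjusted p = 0.785). Alx4 alone of this list had an unadjusted p under 0.05 in limma, beside 8.09% of all genes. Of 9 limb and head genes 0 were called (0.374% of all genes), and the median was -0.05. Of these, 1, Six3, had an unadjusted p under 0.05 in limma (8.09% of all genes), at -0.25 ± 0.08 (limma adjusted p = 0.431). Emx1, the 1 gene of that list above the median probe set at 6.64, differed by -0.10 ± 0.07, and the forelimb gene Tbx5 by -0.14 ± 0.10. Of 9 measured hair genes linked to Hoxc13, 6 are also the hair follicle markers above. In this list 0 were called (0.374% of all genes) and 0 had an unadjusted p under 0.05 in limma (8.09% of all genes). Also, 0 were higher (47.2% of all genes), with a median of -0.07. The list's median deviation from the control mean was 0.14, 0.04 and -0.42 on caNrf2 arrays 1, 2 and 3, so only the third lay below 0. Krt32, a hair cuticle keratin, differed by -0.13 ± 0.13 (limma adjusted p = 0.853), Msx2 by -0.12 ± 0.10 (limma adjusted p = 0.822) and Dlx3, a follicle homeobox gene, by -0.07 ± 0.08 (limma adjusted p = 0.885).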

How the data were processed

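The deposited table gives 1 linear intensity per probe set and array, made with RMA per the submitters' processing notes, which corrects background, normalises by quantiles and summarises probes. The RMA software is not given in the sources used here. Quantile normalisation hides a shift shared by most genes. Columns of other series numbered 0.

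Intensities were converted to log2. The table has 45101 probe sets, and 64 control ones were dropped. Of the remaining 45037, 34945 had 1 symbol, 932 several and 9160 none. A reference gene table (GRCm38.p6) held 34741 of these gene identifiers and changed 0 symbols. Each gene was read by its brightest probe set. The test was limma 3.58.1 (R 4.3.3; lmFit and eBayes) of caNrf2 against control over all 18193 genes with Benjamini-Hochberg adjustment at 0.05, and the fit was checked on simulated data. Array values are given for Hox genes above the median probe set, for the 6 with the smallest p and for those whose probe sets disagree; of each gene list other than the cell type markers, the 3 genes with the smallest p are named. Members, lists and paralogue groups were chosen with earlier results of these data known. Promoter motifs were searched on both strands of the 250 bases before each RefSeq start, whose orientation was checked on 1683 overlapping windows of opposite strands.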

Additional observations from a re-analysis of the deposited data

How the results depend on the processing

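No Hox gene was called under any of the 14 alternatives, with a lowest limma adjusted p of 0.158 (Hoxc13 without caNrf2 array 1). The member median stayed between -0.03 and 0.01. Of the alternatives, 1 tested only genes at or above the median probe set, among them 17 Hox genes. At an unadjusted p under 0.05 in limma the alternatives gave 0 to 6 members, the 6 without caNrf2 array 1. The share of all genes under each alternative is not given here, so these counts are no result about the Hox genes. The direction of 17 uncalled genes changed under at least 1 alternative, by values of at most 0.19 in size (Hoxc10), and 16 kept theirs. The count above the median probe set was 11 with the median over genes as the mark and 16 or 17 otherwise. The count within the Y-linked range was 0 with the mean of all probe sets and 0 to 2 when 1 array was left out (0 without control array 2 or caNrf2 array 3, 2 without control array 3), so it carries little weight. Over all genes 68 were called, 108 when each probe set was fitted alone, where more features are tested, and 41 to 89 with 1 array left out (41, 43 and 45 without control arrays 1, 2 and 3). The replicate number as a block gave 61 called genes and 0 Hox genes. Same-numbered arrays did not deviate together, with correlations of -0.195, -0.0317 and 0.0361, beside -0.164 to 0.189 for differently numbered ones. The values thus showed no pairing of mice by number, which 3 arrays in a group cannot exclude.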
